A study of Arabidopsis lyrata with 12 samples.

Results

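Each of the 8 main scaffolds of Arabidopsis lyrata holds 1 long stretch that contains no listed gene and no domain of 4 chromatin marks, and the chromatin described here lies within 1 Mb on either side of these stretches. Members were all domains and genes lying wholly inside these 16 flanks, which came to 9056 of the 91969 deposited domains and 744 of the 24268 listed genes. The flanks made up 16 Mb, or 8.24% of the extent of the main scaffolds. A further 19 domains and 3 genes crossed an outer edge and are not members. The positions of domains and genes chose the flanks, so the amount of each mark beside the stretch is given as a description. No test was made on it.

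The material was young leaves of Arabidopsis lyrata accession MN47, soil-grown plants kept at 22.5 °C with 16 hours of light a day. Of the 12 libraries, 2 each came from immunoprecipitation of 3 histone forms. These were histone H3 trimethylated at lysine 4 (H3K4me3), trimethylated at lysine 27 (H3K27me3) and monomethylated at lysine 27 (H3K27me1). Another 2 came from immunoprecipitated methylated DNA (5-methylcytosine, 5mC), 3 were inputs and 1 was mRNA. There is no treatment, mutant or second tissue, so every comparison is between parts of the same genome in the same libraries.

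In flowering plants, H3K4me3 marks the 5′ part of transcribed genes, and H3K27me3 is laid down by Polycomb complexes on genes held silent. H3K27me1, deposited by the enzymes ATXR5 and ATXR6 in Arabidopsis thaliana, and dense cytosine methylation are typical of heterochromatin, where transposons gather around the centromeres. Genes embedded in such pericentromeric chromatin are few, and some of them are transcribed.

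The 4 domain lists carry a score per domain whose meaning is not stated, and the mRNA table gives a mean exon coverage per gene from 1 library. There is 1 list for the 2 libraries of each mark, so no replicate error can be attached to any value. Depth is unknown for all libraries. The spread given below is that over the 16 flanks or the 8 scaffolds, which share the same libraries and are not replicates. The rest of the main scaffolds, 160.8 Mb outside the stretches and flanks, served for comparison. Gene identifiers in the table are not paired with names, so genes are given mostly by position. Coordinates are those of the deposited files, counted from 1.

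The stretches measured from 1.65 Mb on scaffold 5 (7610701 to 9263550) to 2.85 Mb on scaffold 1 (18590101 to 21443711). The next longest empty interval on the same scaffold was between 21.1 kb on scaffold 3 and 275 kb on scaffold 8, so each stretch was at least 7.83 times as long. Those of scaffolds 2, 4, 7 and 8 all measured 2.16 Mb. What sequence the stretches hold was not analysed here, so a stretch is ground without a listed feature and was not shown to be free of marks. H3K27me1 and 5mC together formed most borders. An H3K27me1 domain ended exactly at the stretch on 12 of 16 sides, from 1.2 to 26.7 kb wide. On 11 of these a 5mC domain ended at the same place or within 0.3 kb of it, no more than the 300-bp step of the H3K27me1 list, and on the other it began 23.9 kb away. The other borders were a 5mC domain right of the scaffold 5 stretch, an H3K27me3 domain left of the scaffold 2 stretch, and a listed gene on 2 sides. The nearest H3K4me3 domain lay 5.85 to 157.8 kb away, with a median of 83.9 kb, and the nearest listed gene 0 to 395.7 kb away, with a median of 61.7 kb.

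H3K27me1 and 5mC covered much of the flanks on all 8 scaffolds. H3K27me1 domains covered 40.5% of flank base pairs, against 14.9% in the rest, and the single flanks ranged from 20.7 to 50.3% (SD 9.30, 16 flanks). The 5mC domains covered 47.2%, against 20.6% in the rest, with flanks between 28.9 and 55.2% (SD 8.12). For both marks every flank was above the rest of each of the 8 scaffolds, where 5mC did not exceed 22.8%. The left flanks of scaffolds 2 and 7 were the lowest for H3K27me1, at 20.7 and 20.9%, whereas the right flanks of the same scaffolds reached 43.9 and 46.8%.

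H3K4me3 and listed genes were sparse there. H3K4me3 domains covered 3.16% of flank base pairs (flanks 1.82 to 4.88%), against 10.6% in the rest, and listed genes covered 14.9% (flanks 9.15 to 25.3%), against 37.9%. No flank reached the rest of any scaffold in either measure. Ground without a listed gene was not shown to lack genes, since only the table's own entries were used.

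**Figure D1:**
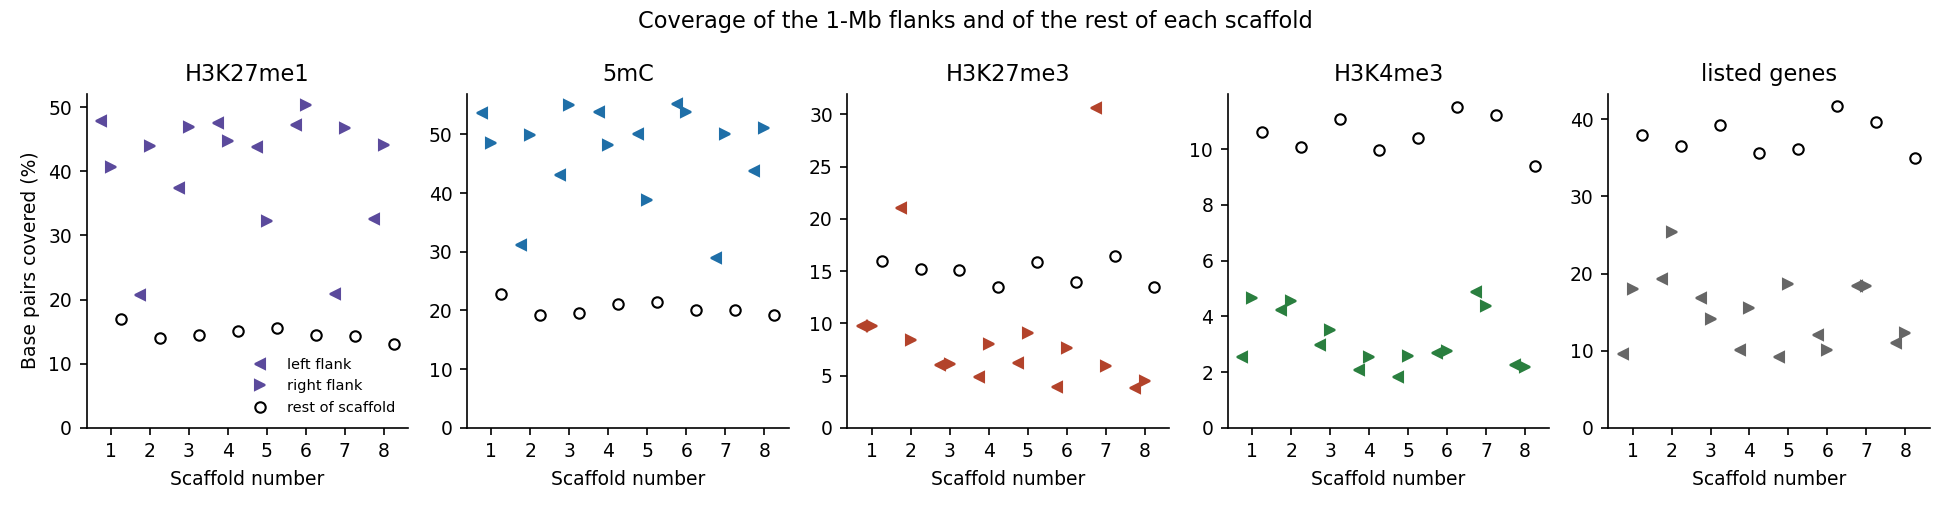
Share of base pairs covered by H3K27me1, 5mC, H3K27me3, H3K4me3 and listed genes in the left and right 1-Mb flank (filled triangles) and in the rest of each scaffold (open circles), for scaffolds 1 to 8. H3K27me1 lies between 20.7 and 50.3% in the flanks, and for H3K27me3 the left flanks of scaffolds 2 and 7 stand at 21.1 and 30.7%.

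By single mark, left and right flanks differed by less than the SD over the 16 flanks. H3K27me1 covered 37.2% of the left and 43.7% of the right flanks and was higher on the right on 5 of 8 scaffolds. 5mC covered 44.9 and 49.4% of the left and right flanks and was higher on the right on 4 of 8. H3K4me3 (2.93% left, 3.39% right) and listed genes (13.3% left, 16.6% right) were each higher on the right on 6 of 8 scaffolds. H3K27me3 covered 10.8% of the left and 7.43% of the right flanks, yet was higher on the right on 6 of 8. Base pairs under any mark or listed gene differed by more than the SD of 4.84: they made up 67.6% of the left and 73.4% of the right flanks and were higher on the right on 8 of 8.

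The share under H3K27me1 was graded with distance. Over the 16 sides it averaged 49.1% (SD 15.2) in the 250 kb next to the stretch, 46.3% between 250 and 500 kb, 35.3% between 500 and 750 kb and 31.3% between 750 and 1000 kb. Just beyond the limit, between 1 and 2 Mb, it averaged 29.5%, and between 4 and 5 Mb 16.2%. Within the flank, the 500 kb nearer to the stretch held more H3K27me1 than the 500 kb farther out on 16 of 16 sides. 5mC was higher in the nearer 500 kb on 14 of 16. Its average was 51.4% (SD 11.7) in the 250 kb next to the stretch and 54.2% (SD 13.2) between 250 and 500 kb, a difference smaller than either SD. Over the first 100 kb alone it averaged 47.3%.

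H3K4me3 and listed genes ran the other way on average. H3K4me3 averaged 2.40% in the first 250 kb, 4.27% between 750 and 1000 kb, 4.50% between 1 and 2 Mb and 8.86% between 4 and 5 Mb. Listed genes averaged 10.9%, 18.6%, 19.7% and 34.2% over the same distances. Of the 160 steps of 100 kb in the flanks, 13 held no H3K4me3 domain base and 15 no listed gene base, while H3K27me1 and 5mC were present in all of them. Single sides departed from the average: the step with the most listed-gene bases of the 160, 44.9%, was the first 100 kb left of the scaffold 3 stretch. The step with the most H3K27me1, 90.8%, lay 100 to 200 kb right of the scaffold 4 stretch, and the one with the most 5mC, 86.8%, lay 400 to 500 kb left of the scaffold 5 stretch.

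**Figure D2:**
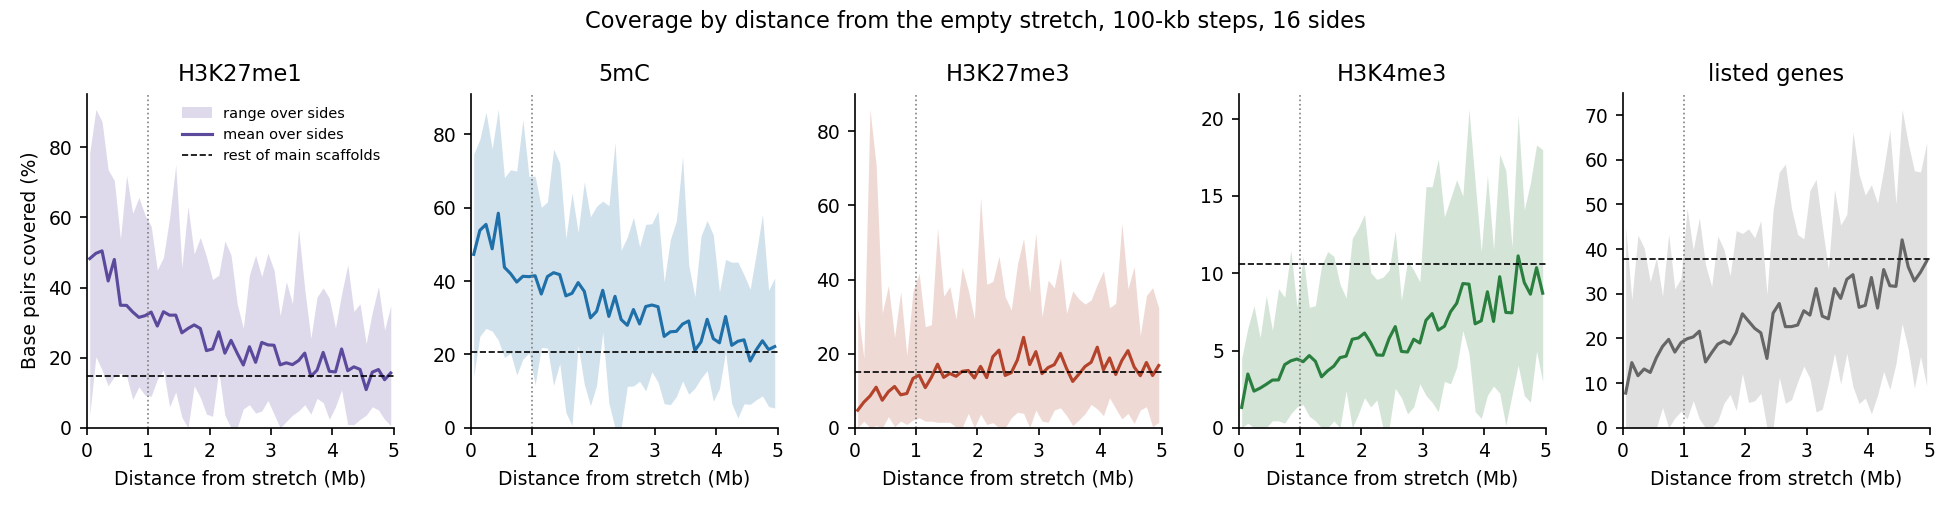
Share of base pairs covered by each mark and by listed genes in 100-kb steps out to 5 Mb from the stretch. Lines are means and bands the range over 16 sides, the dashed line is the rest of the main scaffolds and the dotted line the limit of 1 Mb. H3K27me1 and 5mC lie highest near the stretch and H3K4me3 and listed genes lowest.

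The 2890 H3K27me1 and 4317 5mC members were more often very wide than those elsewhere, although the typical H3K27me1 domain was no wider. The median H3K27me1 width was 1200 bp in the flanks (quartiles 900 and 2400 bp) and 1200 bp in the rest (600 and 2100 bp). Domains over 5 kb made up 9.69% of H3K27me1 members, against 5.73% in the rest, and 39.0% of their length, against 23.5%. For 5mC the median was 900 bp in the flanks and 600 bp in the rest, and it was larger in the flanks on 8 of 8 scaffolds. Domains over 5 kb were 7.74% of 5mC members, against 4.20% in the rest. The widest members were a 5mC domain of 51 kb right of the scaffold 3 stretch (18165301 to 18216300) and an H3K27me1 domain of 39 kb right of the scaffold 6 stretch (17269801 to 17308800). Neither touched a listed gene. H3K27me1 covered 83.5% of the first, and 5mC covered 88.8% of the second.

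A small set of H3K27me1 domains close to the stretches had far higher scores per base pair than the others. The median score per base pair of H3K27me1 members was 0.212 (flank medians 0.206 to 0.224), against 0.210 in the rest. Yet 79 of the 2890 members (2.73%) lay above 0.635, 3 times the median of the whole list, against 51 of 13424 domains (0.380%) in the rest. All 79 lay within 348.9 kb of a stretch. They were 42 of 215 members (19.5%) in the first 100 kb, 29 of 452 (6.42%) between 100 and 250 kb, 8 of 817 (0.979%) between 250 and 500 kb and 0 of 1406 farther out. Of the 12 H3K27me1 domains that formed a border, 10 were among them, and their scores per base pair ran from 0.246 to 2.13 over all 12.

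These dense domains were found on 13 of 16 sides, but unevenly. The left flank of scaffold 5 held 28 of them and the right flank of scaffold 4 held 14, while the right flank of scaffold 1 and the left flanks of scaffolds 2 and 6 held none. Without the left flank of scaffold 5, an exclusion chosen after the values were seen, 51 remained, 33 of them among 203 domains in the first 100 kb (16.3%). Their median width was 4200 bp, against 1500 bp for the dense domains of the rest, and 2 of the 79 touched a listed gene. 5mC covered a median of 86.4% of each. Scores as high also occurred outside the flanks, where the maximum was 5.46. The highest score per base pair in the flanks, 4.74, belonged to a 5.1-kb domain right of the scaffold 6 stretch (17175301 to 17180400), at 22.4 times the list median. The 5mC domain inside it, of 4.35 kb, also had the highest 5mC score per base pair of the flanks, 8.24. The 115 5mC members that touched a dense H3K27me1 domain had a median score per base pair of 1.67, against 1.11 for the 2679 that touched other H3K27me1 members. For the 1523 that touched none it was 1.07. The 115 were also wider, with a median of 2700 bp, against 1350 bp for the 2679 and 450 bp for the 1523. The part of width in these scores was not tested. Copy number of the underlying DNA was not measured, since input values were not used here, and its part in these scores was not tested.

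**Figure D3:**
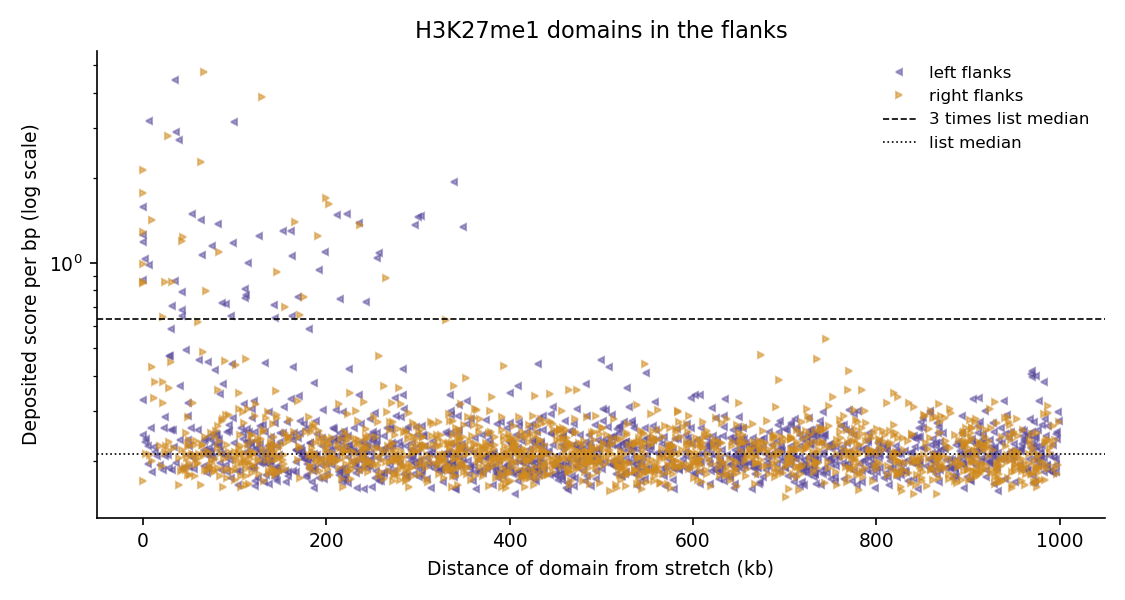
Deposited score per base pair (log axis) of each of the 2890 H3K27me1 domains in the flanks against its distance from the stretch in kb, left flanks in purple and right flanks in orange. The dashed line is 3 times the list median (0.635) and the dotted line the median. Every domain above the dashed line lies within 348.9 kb of a stretch.

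High scores of 5mC were not gathered beside the stretches in the same way. Of its members, 42 (0.973%) lay above 3 times their list median, against 1.07% in the rest, at a median distance of 613.5 kb. Per base pair, the median 5mC score stood at 1.11 in the flanks and 1.12 in the rest. H3K4me3 members had a median of 1.11, against 1.25 in the rest, and were lower on 7 of 8 scaffolds. Among H3K4me3 domains that touched a listed gene, the median was 1.30 in the flanks and 1.30 in the rest. Of all H3K4me3 members, 4 (0.588%) lay above 3 times their list median, against 0.210% in the rest. H3K27me3 members had a median of 0.677, against 0.758, and were lower on 7 of 8, and 2 of them (0.171%) lay above 3 times their list median, against 0.722%.

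H3K27me3 was low in most flanks and high in a pair of them. It covered 9.11% of flank base pairs, against 15.0% in the rest, and was lower in the flanks on 7 of 8 scaffolds. The left flank of scaffold 7 had 30.7% and the left flank of scaffold 2 had 21.1%, above the rest of every scaffold (13.4 to 16.5%). The other 14 flanks had 6.71% together, between 3.81 and 9.75% each. These 2 flanks were also the poorest in H3K27me1. On scaffold 7, the H3K27me3 was concentrated between 200 and 400 kb from the stretch, in 53 domains with a median width of 2100 bp that together measured 157.2 kb. The step from 200 to 300 kb was covered to 85.9%. The widest H3K27me3 member, 15.6 kb (15188701 to 15204300), lay there and touched no listed gene. Only 1 listed gene lay wholly between 200 and 400 kb, with a coverage of 1, and there was no H3K4me3 domain. On scaffold 2, 166 H3K27me3 domains of median width 900 bp were spread over a flank that also held 54 listed genes.

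Of the H3K27me3 base pairs in the flanks, 39.1% were also under 5mC and 32.2% under H3K27me1, against 21.7% and 15.3% in the rest. Both shares were higher in the flanks on 8 of 8 scaffolds. Both of those marks also covered more of the flanks as a whole, and the part of this in the shares was not tested. The H3K27me1 base pairs were under 5mC to 84.2% (flanks 77.4 to 88.3%), against 82.3% in the rest, and the 5mC base pairs under H3K27me1 to 72.2%, against 59.6%.

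The 680 H3K4me3 members had a median width of 750 bp, as in the rest, but fewer were wide. Their quartiles were 450 and 900 bp, against 600 and 1050 bp in the rest, and their mean was 744 bp, against 832 bp. None reached 5 kb. Of them, 532 touched a listed gene and 148 (21.8%) did not, against 7.43% without a listed gene in the rest. The 148 were narrow, with a median of 300 bp, and had a median score per base pair of 0.539, against 750 bp and 1.30 for the 532. Many overlapped heterochromatic marks at least in part: 88 of the 148 (59.5%) touched 5mC and 78 (52.7%) touched H3K27me1. In the rest, these shares were 26.8% and 21.5% of the 1520 H3K4me3 domains without a listed gene. How much of their length lay under these marks was not measured. H3K27me3 touched 61 of the 148 (41.2%), against 46.5%. Of the 532 at listed genes, 63 (11.8%) touched 5mC and 14 (2.63%) touched H3K27me1, against 3.59% and 1.65% in the rest. 5mC and H3K27me1 also covered more of the flanks as a whole (47.2 and 40.5%, against 20.6 and 14.9% in the rest). The part of this in the contacts was not tested. The widest H3K4me3 member, 3 kb left of the scaffold 1 stretch (18148501 to 18151500), lay on a gene with a coverage of 461.9, and 60% of it was also under H3K27me3.

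The flanks held 744 listed genes, or 46.5 per Mb, against 142.2 per Mb in the rest, and 31 to 70 per flank. They stood apart from each other: the median interval between neighbouring listed genes was 5607 bp in the flanks and 1250 bp in the rest, and 58 intervals (7.97%) exceeded 50 kb, against 0.705%. Their median span was 2500 bp, against 2239 bp, and was longer in the flanks on 8 of 8 scaffolds.

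A mark was assigned to a gene if its domains overlapped the gene by 200 bp or more, or overlapped a gene below that length completely. H3K4me3 was carried by 513 of the 744 genes (69.0%, exact 95% interval 65.5 to 72.3%), against 79.5% in the rest and 78.7% over all listed genes. H3K27me1 was carried by 136 (18.3%, interval 15.6 to 21.2%), against 7.64% in the rest and 7.97% over all. 5mC was carried by 166 (22.3%, interval 19.4 to 25.5%), against 10.2% in the rest and 11.0% over all. Both of these shares were higher in the flanks on 8 of 8 scaffolds. H3K27me3 was carried by 137 (18.4%, interval 15.7 to 21.4%), against 17.2% in the rest and 17.2% over all, a difference inside the interval. The intervals cover counting error only, and genes of a flank are not independent.

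H3K27me1 and 5mC were on a larger share of these genes. For the commoner combinations of marks, the quartile ranges of mRNA coverage in the flanks and elsewhere overlapped. The median over all 744 was 6.08 (quartiles 1.80 and 15.6), against 7.16 in the rest, and it was lower in the flanks on 6 of 8 scaffolds. For the 513 with H3K4me3 it was 9.81 (quartiles 4.67 and 20.8), against 9.35 in the rest (quartiles 4.50 and 19.4), and higher in the flanks on 3 of 8 scaffolds. For the 231 without H3K4me3 it was 1.49, against 1.54 in the rest. The lowest value in the table is 1, at which 85 members (11.4%) were listed, against 8.02% in the rest and 8.23% over all listed genes.

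Among combinations, H3K4me3 alone was on 380 genes, whose median was 11.4 (quartiles 6.04 and 22.7), against 10.3 in the rest (5.34 and 20.9). The 36 with H3K4me3 and 5mC had 10.5, against 10.2. The 28 with H3K4me3, H3K27me1 and 5mC had 6.70, against 5.05, and 14 of the 28 reached the median of all listed genes, against 33.7% in the rest. The 36 with H3K4me3 and H3K27me3 had 2.38, against 4.07, with wide quartiles of 1.53 and 17.6. The 44 with H3K27me1 and 5mC but neither of the other marks had a median of 1, the floor of the table, against 1.28 in the rest. At the floor stood 23 of them (52.3%), against 40% of such genes in the rest. The 54 with H3K27me3 alone had 1.72, against 1.31. The quartiles of flanks and rest overlapped for all of these combinations. For the 44 with H3K27me1 and 5mC they could not fail to, since both lower quartiles were 1, the floor. Overlap of quartiles does not show that coverage was alike, and no difference was tested.

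**Figure D4:**
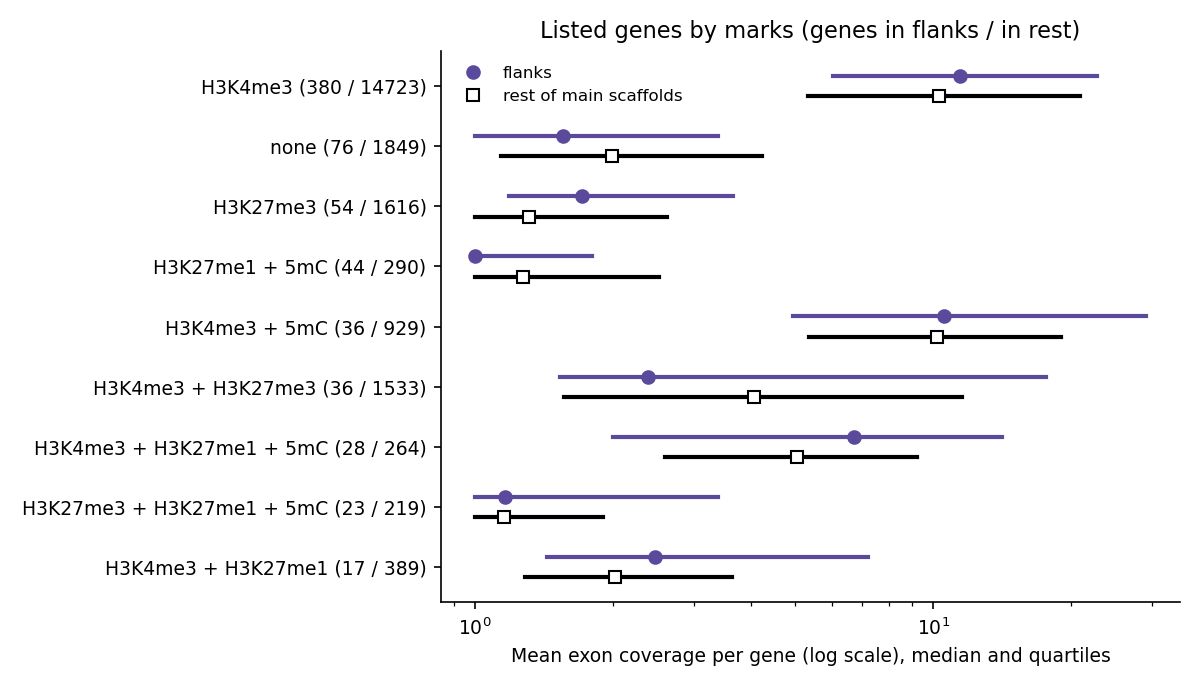
Median (symbol) and quartiles (bar) of mean exon coverage on a log axis for listed genes grouped by the marks they carry, flanks (filled circles) above the rest of the main scaffolds (open squares), with the number of genes in each. Genes with H3K4me3 alone have medians of 11.4 and 10.3, and the quartile ranges overlap in all 9 combinations drawn.

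Most genes with H3K4me3 stayed expressed beside the stretches. Taking the median coverage of all listed genes, 7.02, as the limit, 325 of the 513 (63.4%, exact 95% interval 59.0 to 67.5%) were at or above it, against 60.7% in the rest (interval 60.0 to 61.4%) and 60.4% over all H3K4me3 genes. In single flanks it ran between 17 of 34 right of the scaffold 3 stretch and 19 of 26 (73.1%) right of the scaffold 6 stretch. The share was higher in the flanks on 4 of 8 scaffolds, and that of the rest lay inside the counting interval of the flanks. Without H3K4me3, 25 of 231 genes (10.8%) reached the limit, against 11.3% in the rest and 11.5% over all. Counted from the stretch outwards in steps of 200 kb, the expressed share of H3K4me3 genes was 59.5, 62.5, 75.3, 66.9 and 55.6%. It rested on 79 to 144 genes a step, and the intervals of neighbouring steps overlapped. The interval of the highest step, from 400 to 600 kb (65.0 to 83.8%), lay above that of the rest. It also lay above that of the lowest step, from 800 to 1000 kb (47.1 to 63.8%). These steps were singled out by their values, the intervals cover counting error only, and genes of a flank are not independent. A difference between steps was not tested. The 325 expressed genes had a median coverage of 16.6 (quartiles 10.9 and 34.9), against 16.1 in the rest (10.5 and 30.3), and 25 of them (7.69%) reached 100, against 6.19%. When a mark had to lie on 50% or more of the gene, far fewer genes counted as H3K4me3 genes, and 93 of those were expressed. That count is not comparable with the 325, and the share in the rest under this rule is not given here.

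These expressed genes were themselves mostly free of the heterochromatic marks, with those marks close by. Of the 325, 266 (81.8%) carried H3K4me3 and no other mark, against 87.3% in the rest. H3K27me1 touched the span of 24 (7.38%) and 5mC that of 74 (22.8%), against 1.81% and 11.5% in the rest. In the 5 kb on either side, H3K27me1 covered a mean of 22.1% and 5mC 31.0%, against 6.69% and 10.7% around expressed H3K4me3 genes of the rest. Over all flank base pairs the shares were 40.5% and 47.2%, so this ground held less of both marks than the flanks as a whole. Both marks were present within 5 kb of 268 of the 325, a count not made for the rest. Singly, H3K27me1 was absent within 5 kb of 16.3% of the 325 and 5mC of 2.15%. Around expressed H3K4me3 genes of the rest, these were absent for 61.3% and 31.1%. The nearest H3K27me1 domain lay a median of 1517 bp from the gene, against 7437 bp, and the nearest 5mC domain 408 bp, against 2103 bp. The 188 H3K4me3 genes below the limit had similar surroundings, with means of 20.4% for H3K27me1 and 29.0% for 5mC. H3K27me1 touched the span of 35 of these 188 (18.6%), against 9.67% of the H3K4me3 genes below the limit in the rest.

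**Figure D5:**
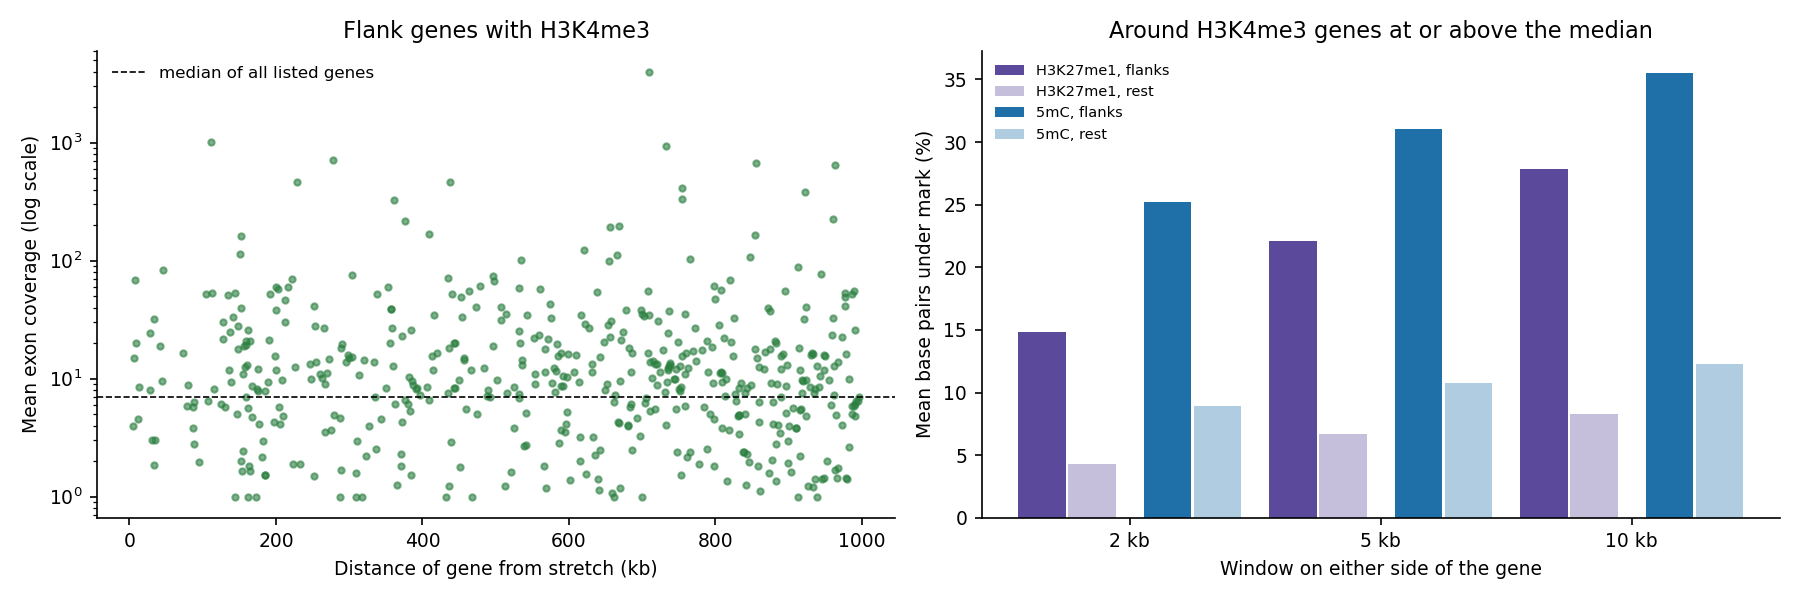
Left, mean exon coverage (log axis) of the 513 flank genes with H3K4me3 against distance from the stretch in kb, with the median of all listed genes (7.02) dashed. Right, mean share of base pairs under H3K27me1 and 5mC in 2, 5 and 10 kb on either side of H3K4me3 genes at or above that median, 325 in the flanks (dark bars) and 11038 in the rest (pale bars); at 5 kb the 5mC bars are 31.0 and 10.7%.

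How near an expressed H3K4me3 gene came to the stretch differed widely between sides. The nearest lay 5.80 to 531.3 kb away on the 16 sides, with a median of 131.3 kb, and within 100 kb on 6 sides. On 6 sides it was also the listed gene nearest to the stretch. The closest was right of the scaffold 8 stretch (9785196 to 9791696), at 5.80 kb with a coverage of 15.0. Next came a gene right of the scaffold 5 stretch (9270505 to 9271676), at 6.95 kb with a coverage of 68.5. Left of the scaffold 7 stretch, a gene 45.1 kb away (15359056 to 15360799) had a coverage of 84.0, with H3K4me3 over 97.4% of its span and H3K27me1 over 57.4% of the 5 kb on either side. Right of the scaffold 2 stretch, a gene 27.3 kb away (7256437 to 7262059) had a coverage of 24.4 with H3K27me1 over 47.4% and 5mC over 40.0% of its span. The farthest, 531.3 kb left of the scaffold 5 stretch (7075643 to 7079384), had a coverage of 7.41. All 16 had H3K27me1 or 5mC within 5 kb, and 14 carried H3K4me3 alone. Neither is particular to the nearest genes. Of all 325 expressed H3K4me3 genes of the flanks, 0.923% had neither mark within 5 kb, against 26.8% in the rest. H3K4me3 alone was on 81.8% of the 325, against 87.3% in the rest.

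The 10 H3K4me3 genes with the highest coverage reached 384.3 to 3968 (at least 54.8 times the median of all listed genes). None carried H3K27me1 or 5mC, which were on 47 of all 325 expressed H3K4me3 genes of the flanks (14.5%). H3K27me3 was on 3 of the 10, against 18 of the 325 (5.54%), and 4 of the 10 lay within 500 kb of the stretch. The highest was AL3G42650, left of the scaffold 3 stretch at 710.1 kb (14704729 to 14705451), with H3K4me3 over 92.9% of its span. The next was AL3G43400, right of the same stretch at 111.5 kb (17449053 to 17450627), with a coverage of 1014. H3K4me3 covered 100% of its span and H3K27me3 71.6%, although the median for genes with both marks in the flanks was 2.38. A gene 278.5 kb left of the scaffold 4 stretch (6969090 to 6969800), with a coverage of 707.7, stood in the densest surroundings of the 10: 81.1% of the 10 kb on either side was under H3K27me1 and 87.1% under 5mC, and neither mark touched the gene. Without H3K4me3 the highest values were far lower, at 45.8 for AL1G50520 (scaffold 1, 22263949 to 22264455), which lay wholly in H3K27me3, and 43.7 for AL3G43290 (scaffold 3, 15414357 to 15415505), which carried no mark.

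AL3G43290 formed the left border of the scaffold 3 stretch, and the chromatin beside it differed from that at the other borders. The last 65.7 kb before this stretch (15349801 to 15415505) held 11 listed genes and no domain of any mark. On the other 15 sides the first domain of any mark lay at the border itself, except right of the scaffold 1 stretch, where it lay 8.09 kb away. Of the 11 genes, 10 had a coverage between 1 and 3.07, and AL3G43290 had 43.7. This block was noticed after its values were seen. Whether reads could be placed there was not tested.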

How the data were processed

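The authors deposited 1 domain list per mark, each domain with a whole-number score, and 1 table of mean exon coverage (a signal per gene, with no stated normalization). The submitters' processing notes name SICER and Bowtie without versions. Not given in the sources used here: the build, the calling settings, how the 2 libraries per mark were pooled, and what the score means. Domain starts count from 0 with inclusive ends, and 1 was added to both. The stretch on each scaffold was the longest interval without a listed gene or domain, and flanks ran 1 Mb from it. Overlaps were summed in base pairs, after a check of the functions on simulated intervals (Python 3.11.15, numpy 2.4.6, pandas 2.3.3, scipy 1.17.1). Scores per base pair divide score by width. Depth is unknown, so no interval for it can be given. Intervals on shares of genes are exact (Clopper-Pearson). No test was run: 1 list and 1 mRNA library give no replicates. The members, lists and limits were chosen with earlier results of these data known.

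Named items follow a rule: the widest and densest domain of each mark, the border features, the 10 H3K4me3 genes with the highest coverage, the nearest expressed H3K4me3 gene on each side, and by identifier 2 genes with and 2 without H3K4me3. Part of these are given only as ranges. Items noticed after their values were seen are said to be so. The RefSeq gene table matched 0 of the 24268 identifiers. Input libraries were not used here.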

Additional observations from a re-analysis of the deposited data

How the results depend on the processing

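No paired analysis was possible because each mark has 1 list and no value per replicate. Across 175 recomputed values, 128 stayed within the SD over the 16 sides, or, for counts, within 1.5 times. The 175 include differences from the rest and values with 1 scaffold left out. The latter share most of their flanks with the full set and could hardly move, so the tally is no measure of stability. No difference from the rest changed direction with the rest limited to at least 5 Mb from the stretch, where that of H3K4me3 coverage was -10.1 percentage points, against -7.42. Counts followed flank length. With 0.5 Mb there were 299 genes, 266, 460, 1479 and 2108 domains of H3K4me3, H3K27me3, H3K27me1 and 5mC, 197, 51, 62 and 71 genes with these marks, and 127 expressed H3K4me3 genes, and the median H3K27me1 width was 1500 bp. With 2 Mb there were 1821 genes, 1661, 2890, 5460 and 8492 domains, 1286, 355, 291 and 392 genes with these marks, and 788 expressed H3K4me3 genes. The top 50% of each list by score left 286, 459, 1596 and 2551 domains, of median width 900, 1800, 2400 and 1650 bp and median score per base pair 1.65, 0.886, 0.221 and 1.24. It left 285 genes with H3K4me3 and 78 with H3K27me1, and H3K4me3 then covered 1.84%. Domains of at least 1200 bp had medians of 1.67 for H3K4me3, 0.826 for H3K27me3 and 1.19 for 5mC. Requiring 50% of a gene's length under the mark left 130 genes for H3K4me3, 78 for H3K27me3, 61 for H3K27me1 and 76 for 5mC, and 93 H3K4me3 genes were expressed. A limit of coverage above exactly 1 gave 501 and left out 12 of the 513. It would leave out 415 of 18191 H3K4me3 genes in the rest and 439 of 19097 over all, which is nearly the same share. Leaving out each scaffold gave 264 to 300 expressed H3K4me3 genes and 39.3 to 41.6% H3K27me1. Chosen after the data were seen, leaving out the left flank of scaffold 5 left 51 dense H3K27me1 domains, and a limit of 2 times the list median gave 106, or 3.67%, against 0.901% in the rest. Unknown depth limits every comparison between marks.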
